A study of Mus musculus with 35 samples.

Results

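The 10 genes studied here belong to the early transcriptional response of neurons and were followed through the hippocampus after status epilepticus. These 10 of the 32544 genes counted were chosen by their symbols: the zinc finger factors Egr1, Egr2, Egr3 and Egr4, the orphan nuclear receptors Nr4a1, Nr4a2 and Nr4a3, the bHLH-PAS factor Npas4, and the immediate early response genes Ier2 and Ier5. All 10 were detected. The libraries came from adult male C57BL/6JOlaHsd mice fitted with a cannula, which received kainic acid into the amygdala (IAKA) and then lorazepam, or PBS in its place, and were killed 24 h or 2 weeks later. From each hippocampus RNA was sequenced either as input or after immunoprecipitation with an antibody to N6-methyladenosine (m6A), the commonest internal mark of mRNA. The m6A libraries numbered 3 PBS and 5 IAKA at 24 h and 5 PBS and 6 IAKA at 2 weeks. The input libraries used numbered 1 PBS and 3 IAKA at 24 h and 3 PBS and 6 IAKA at 2 weeks. Each library was 1 mouse, named here by its number in the labels.

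The amygdala injection triggers seizures that spread to the hippocampus on the injected side and leave the animals epileptic after a delay. Firing neurons switch on immediate early genes within minutes, without new protein synthesis, through kinases and calcium acting on factors already present at the promoters, mainly SRF with its Elk partners and CREB. EGR proteins bind GC-rich sites and recruit the NAB corepressors, NR4A receptors act without a known hormone ligand, and NPAS4 pairs with ARNT proteins and responds to calcium entry in particular. Their mRNAs are as a rule short-lived.

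The promoters of the group were searched for sites of the factors that carry these signals. The window of Npas4 is printed because it had the largest difference at 24 h, and those of Nr4a1 and Nr4a3 because they are related receptors with differences of opposite sign there. Promoters from RefSeq (GRCm38.p6) were found for 7 of the 10 members; Egr1, Egr3 and Ier2 had none in the table used. The 250 bases before each transcription start were searched on both strands for TGACG, the core of the cAMP response element that CREB binds, and for the full palindrome TGACGTCA, in which the core occurs on both strands. TGACG or its reverse complement CGTCA lay in 6 of the 7 members (Egr2, Egr4, Nr4a1, Nr4a2, Nr4a3 and Npas4, with Ier5 the exception), and in 19.8% of 27025 genes, or 17.8% of all 32851 promoters of that length. The palindrome was in 0 of 7, and in 1.55% of all promoters. In the sequences below, each read 5′ to 3′ on the gene's own strand, capitals mark TGACG and CGTCA. The Npas4 window is chr19:4989972-4990221 on the minus strand, that of Nr4a1 is chr15:101266596-101266845 on the plus strand, and that of Nr4a3 is chr4:48045055-48045304 on the plus strand.
Npas4: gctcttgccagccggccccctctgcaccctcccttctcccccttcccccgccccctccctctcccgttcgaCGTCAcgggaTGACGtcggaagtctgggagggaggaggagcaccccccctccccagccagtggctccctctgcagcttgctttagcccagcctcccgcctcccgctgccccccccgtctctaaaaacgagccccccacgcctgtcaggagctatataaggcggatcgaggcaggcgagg
Nr4a1: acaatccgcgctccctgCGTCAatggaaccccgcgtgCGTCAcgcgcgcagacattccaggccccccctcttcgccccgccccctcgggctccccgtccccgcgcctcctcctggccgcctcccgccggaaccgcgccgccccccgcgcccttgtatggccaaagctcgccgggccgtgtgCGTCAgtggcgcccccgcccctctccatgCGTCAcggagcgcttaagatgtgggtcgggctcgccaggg
Nr4a3: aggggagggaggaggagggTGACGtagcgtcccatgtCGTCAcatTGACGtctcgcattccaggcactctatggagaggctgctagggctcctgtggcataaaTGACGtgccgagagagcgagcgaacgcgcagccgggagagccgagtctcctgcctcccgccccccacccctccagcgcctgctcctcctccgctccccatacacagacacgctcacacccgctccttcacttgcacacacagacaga
Npas4 held 2 matches, 179 to 165 bases before the start, whereas Nr4a1 and Nr4a3 held 4 each, as did Nr4a2, which is not printed. An SRF site, the CArG box, was found in Egr2 alone among the 7 and in 1.47% of all promoters. It lies within chr10:67537787-67537816 on the plus strand and is shown in capitals.
Egr2: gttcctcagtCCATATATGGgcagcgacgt
AAAGGTCA, a site that NR4A receptors bind, was in 0 of the 7 and in 1.34% of all promoters. Other forms of NR4A site were not searched for. TATAAA was in Nr4a2 alone and in 12.4% of all. A match describes these letters and does not show that a factor is bound.

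Libraries differed widely in depth, which limits the members with few counts most. Total counts ran from 1652933 to 34564536 in the 19 m6A libraries and from 3057578 to 12694434 in the 13 input libraries used; 3 further input libraries, all of 24 h, held fewer than 100000 counts and were left out. Levels are given as CPM, the count divided by the library's total and scaled to 1000000. Libraries came in sets, named in the column headers for m6A and by table for input, and sets and groups were unevenly crossed: m6A set 3 held only IAKA mice, and the second input set did so among the libraries used, its 2 PBS libraries being among those left out. Mouse 8 (IAKA, 24 h) had 16.4% mitochondrial counts in its m6A and 17.4% in its input library, and mouse 6 (IAKA, 2 weeks) had 17.5% in its m6A library. The assay of 27 of the 35 libraries follows from the column prefix and not from a word in the header. Markers of the hippocampal fields were present in every group, summing to between 320 and 1610 CPM over 8 genes, and markers of the choroid plexus were present as well. In bulk tissue, fewer cells of a type and less RNA per cell cannot be told apart.

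Resting levels differed widely between members. Per kilobase of transcript, the median over the 3 PBS input libraries at 2 weeks was highest for Egr1, at 11.8 CPM per kb (7.04 to 13.9), followed by Nr4a2 at 10.1 (8.80 to 10.9) and Nr4a3 at 9.07 (5.53 to 9.67). These ranges overlap, so the leading members do not differ beyond their spread. Nr4a1 (3.66), Ier5 (3.52) and Npas4 (2.22 CPM per kb) formed the middle of the order. The range of Nr4a1 (1.46 to 5.01) overlapped those of both others, while Npas4 (0.472 to 2.64) lay below Ier5 (3.48 to 4.81). Egr3 stood at 1.45 CPM per kb, and Ier2 (0.583), Egr2 (0.529) and Egr4 (0.449) were lowest, the last group resting on 1 to 12 counts per library. In m6A libraries of PBS mice at 2 weeks the same length-scaled level was again highest for Egr1 (21.9), then Nr4a3 (16.6) and Nr4a2 (13.8 CPM per kb), and lowest for Egr2 (0.630).

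**Figure D1:**
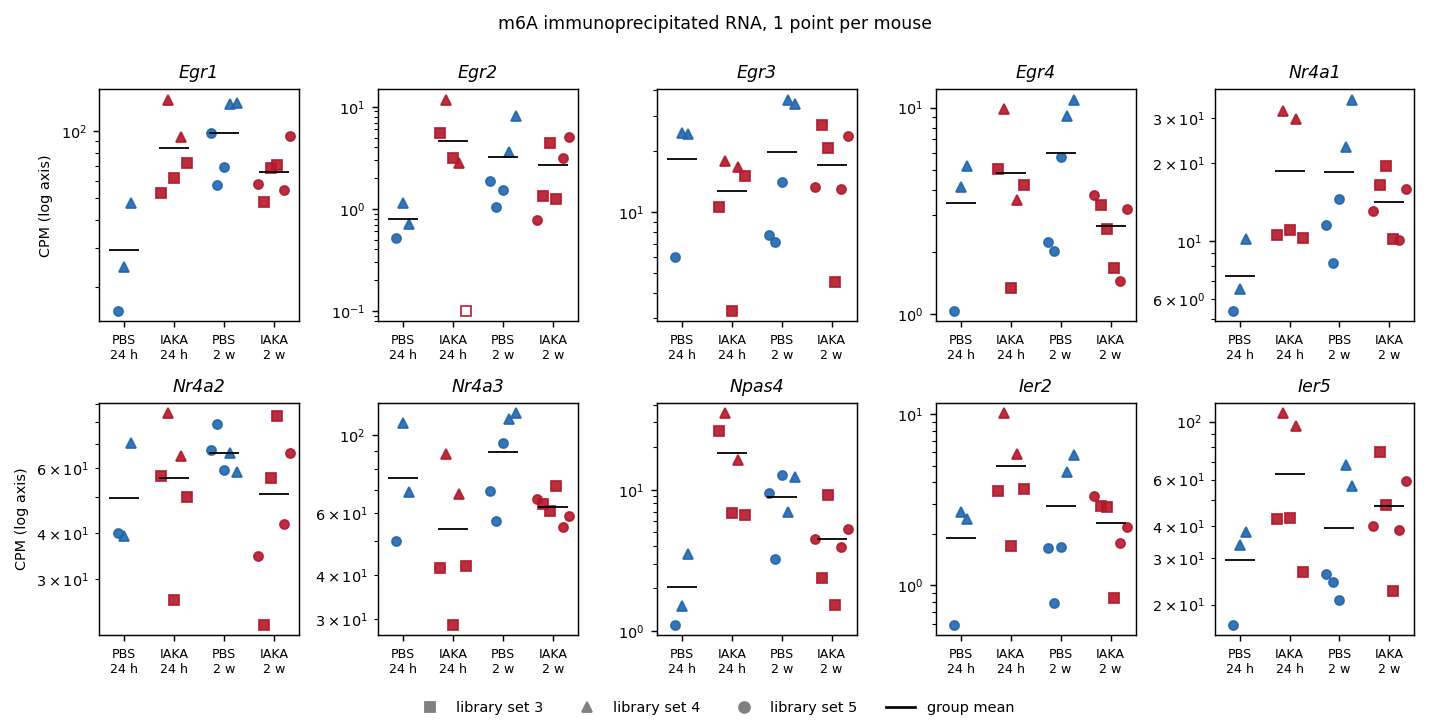
Level of each of the 10 genes in the m6A libraries, in CPM on a log axis, for PBS and IAKA mice at 24 h and 2 weeks; each point is 1 mouse, its shape gives the library set, the line is the group mean, and the open square marks the library in which Egr2 had 0 counts. Npas4 in the 5 IAKA mice at 24 h lies above all 3 PBS mice of that time, and the PBS mice at 2 weeks overlap the IAKA mice of both times for Npas4 and Egr1.

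The first comparison asked how the m6A-precipitated transcripts differed 24 h after IAKA. Npas4, Egr1 and Nr4a1 were higher in each of the 5 IAKA mice than in each of the 3 PBS mice, yet none of the 10 members passed the adjusted threshold of 0.05. In edgeR's quasi-likelihood test 1 of 16470 genes was called (0.00607% of those tested), and 875 (5.31%) had an unadjusted p under 0.05, among them 5 of the 10 members. 8 of the 10 had a log2 difference above 0, with a median of 1.19 against 0.083 over all genes tested. The 3 members whose groups did not overlap upward compare with 2.62% of all genes. Of the 5 members with an unadjusted p under 0.05, 2 were left without PBS mouse 1 and 3 without PBS mouse 71, IAKA mouse 97 or IAKA mouse 79, and the median was 0.83 without mouse 79, with 6 of 10 above 0.

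Npas4, which drives inhibitory synapse formation on active neurons, was at 1.51, 3.51 and 1.11 CPM in PBS mice 71, 73 and 1. It was at 26.3, 6.66, 16.2, 34.7 and 6.90 CPM in IAKA mice 67, 98, 97, 79 and 8, a mean of 18.1 ± 12.3 (SD, n = 5) against 2.04 ± 1.29 (SD, n = 3). The lowest IAKA mouse lay above the highest PBS mouse, and the IAKA mice themselves were spread over a wide range. The log2 difference was 3.07 ± 0.64 (SE), with an adjusted p of 0.22 by edgeR and, over 18 other settings, from 0.000144 in DESeq2 to 0.86.

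Among the EGR factors, Egr1, a general reporter of neuronal activity, was at 24.6, 47.7 and 15.7 CPM in the PBS mice and at 53.0, 72.0, 94.5, 138 and 61.7 CPM in the IAKA mice, in the same order. The groups were apart, though the nearest mice differed by little (47.7 against 53.0 CPM); the log2 difference was 1.48 ± 0.44 (SE, edgeR adjusted p = 0.56). Egr2, known best from myelinating Schwann cells and also induced in neurons, was at 1.15, 0.715 and 0.517 CPM in PBS mice and at 5.56, 0, 2.82, 11.8 and 3.12 CPM in IAKA mice. Of the IAKA mice 4 exceeded every PBS mouse and the remaining one, mouse 98, had 0 counts in the shallowest library, where 3 counts would be 1.81 CPM. Its log2 difference was 2.54 ± 0.87 (SE, edgeR adjusted p = 0.66).

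Egr3 and Egr4 differed from the pattern of Egr1. Egr3, a close relative needed for muscle spindles as well as induced in neurons, was at 24.6, 24.3 and 6.05 CPM in PBS mice and at 10.6, 15.1, 16.7, 17.8 and 3.26 CPM in IAKA mice. The ranges overlapped and the log2 difference was below 0, at -0.60 ± 0.52 (SE, edgeR adjusted p = 0.98). Egr4, a paralog with few counts here, was at 4.12, 5.22 and 1.03 CPM in PBS and between 1.33 and 9.78 CPM in IAKA mice, and its difference of 0.39 ± 0.63 (SE) on the log2 scale was smaller than its error.

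The NR4A receptors divided in the same way. Nr4a1 was at 6.53, 10.2 and 5.39 CPM in PBS and at 10.6, 10.3, 29.7, 31.9 and 11.1 CPM in IAKA mice, so that the groups were separated by a narrow gap (10.2 against 10.3 CPM). Its log2 difference was 1.32 ± 0.46 (SE, edgeR adjusted p = 0.71). Nr4a2, which dopaminergic neurons require, spanned 39.4 to 70.5 CPM in PBS and 26.3 to 84.6 CPM in IAKA mice (log2 difference 0.11 ± 0.34, SE). Nr4a3 spanned 50.0 to 108 CPM in PBS and 28.9 to 88.7 CPM in IAKA mice (log2 difference -0.52 ± 0.35, SE). Neither of the latter differed beyond the spread of its groups.

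Ier5, a regulator of heat shock factor activity, was at 33.8, 38.0 and 16.8 CPM in PBS and at 42.4, 26.6, 95.9, 107 and 42.7 CPM in IAKA mice. Among the 5 IAKA mice 4 lay above every PBS mouse, and the log2 difference was 1.06 ± 0.47 (SE, edgeR adjusted p = 0.92). Ier2, a small nuclear protein of the same family, ranged from 0.591 to 2.69 CPM in PBS and from 1.71 to 10.1 CPM in IAKA mice, with a log2 difference of 1.34 ± 0.63 (SE, edgeR adjusted p = 0.98).

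Library set moved with these values. Mice 97 and 79, the IAKA mice of set 4, had the highest Egr1, Nr4a1 and Ier5 of the group, while the other 3 IAKA mice belonged to set 3, which held no PBS mouse. A fit within set 4, 2 IAKA against 2 PBS mice, was added after the counts were seen. In it Ier5 (log2 difference 1.38 ± 0.17, SE, edgeR adjusted p = 0.0181) and Nr4a1 (1.77 ± 0.27, SE, edgeR adjusted p = 0.0302) passed the threshold, as did 2.11% of 16903 genes. Npas4 was at 3.30 ± 0.59 (SE, edgeR adjusted p = 0.0694). With the set as a block no member passed, and the log2 differences were 3.22 for Npas4 and 1.54 for Egr1. Only set 4 held both treatments at 24 h, so these differences rest on the same 2 IAKA and 2 PBS mice and are no separate check. Other markers moved as well: choroid plexus genes stood above 0 in 6 of 6 (median log2 difference 1.03, their sum ranging from 29.1 to 973 CPM in IAKA and from 46.1 to 599 CPM in PBS mice), and hippocampal field genes in 1 of 8 (median -0.79, from 320 to 1152 against 829.3 to 1179 CPM). Infiltrating leukocyte genes were above 0 in 5 of the 5 tested (median 1.24, from 31.4 to 78.1 against 12.2 to 37.7 CPM), and excitatory neuron genes in 1 of 6 (median -0.26, from 845 to 2865 against 2356 to 4211 CPM). No gene of these lists was at 0 in a whole group, and the part of these in the result was not tested.

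The PBS mice of 24 h, on which this comparison rests, were low against the PBS mice of 2 weeks. In a comparison added after the values were seen, all 10 members had a log2 difference above 0 for PBS mice at 2 weeks over PBS mice at 24 h, with a median of 0.68 against 0.007 over all genes. Single libraries moved that median: it was 0.28 without PBS 24 h mouse 1, 0.41 without PBS 2 weeks mouse 78, 0.45 without mouse 50 and 1.04 without PBS 24 h mouse 73, with 9 or 10 members above 0, and in voom it was 0.35 with 6 of 10 above 0. With the library set as a block the median was 1.16, with 10 of 10 members above 0. None passed the adjusted threshold (0% of 16182 genes by edgeR, and 0 by DESeq2 and by voom), and 4 members had an unadjusted p under 0.05, as did 1.19% of all genes. Egr1 was at 132, 133, 98.4, 57.3 and 69.5 CPM in PBS mice 50, 78, 2, 3 and 4, each above all 3 PBS mice of 24 h and overlapping the IAKA mice of 24 h throughout. Npas4 was at 6.91, 12.3, 9.51, 3.24 and 12.6 CPM in the same mice, above the 24 h controls in 4 of 5. The log2 differences were 1.70 ± 0.45 (SE) for Egr1, 2.09 ± 0.57 (SE) for Npas4, 1.99 ± 0.73 (SE) for Egr2 and 1.31 ± 0.50 (SE) for Nr4a1, the adjusted p being 0.999 for each by edgeR. Egr4 (0.77), Ier2 (0.59), Ier5 (0.39), Nr4a2 (0.37), Nr4a3 (0.24) and Egr3 (0.10) had smaller log2 differences. Choroid plexus markers were above 0 in 6 of 6 in this comparison too (median 1.92, their sum ranging from 213 to 1774 CPM at 2 weeks and from 46.1 to 599 CPM at 24 h), and thalamus markers in 6 of 6 (median 0.54, from 137 to 321 against 114 to 146 CPM). None was at 0 in a whole group, and their part was not tested.

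With the PBS mice of both times as controls, in a fit added after the counts were seen, the 24 h differences were smaller. Npas4 was at 1.47 ± 0.55 (SE, edgeR adjusted p = 0.22), Egr1 at 0.21 ± 0.44 (SE, edgeR adjusted p = 0.87) and Nr4a1 at 0.38 ± 0.44 (SE, edgeR adjusted p = 0.74) on the log2 scale.

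**Figure D2:**
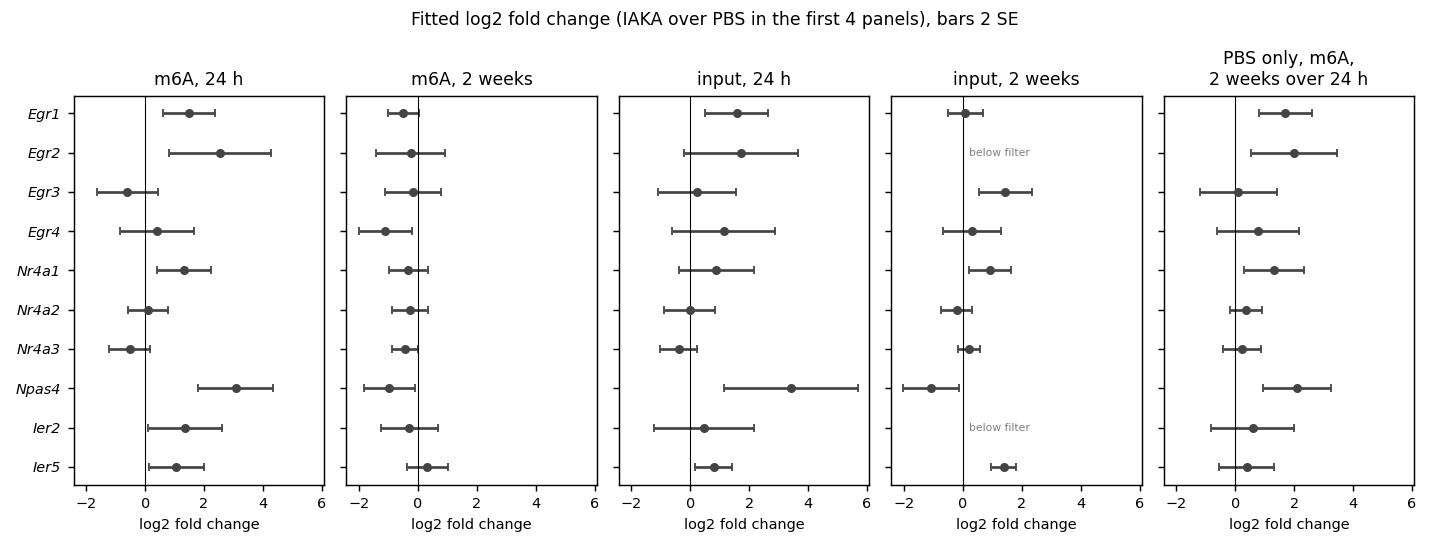
Log2 difference of each member in 5 comparisons, with bars of 2 SE: IAKA over PBS in m6A and input libraries at 24 h and 2 weeks, and PBS mice at 2 weeks over PBS mice at 24 h in m6A libraries. Npas4, Egr1, Egr2 and Nr4a1 lie above 0 at 24 h and again in the PBS-only panel, whereas Ier5 and Egr3 lead in input at 2 weeks; Egr2 and Ier2 fell below the count filter there.

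In input RNA at 24 h Npas4 and Egr1 had the smallest p among the members, in a comparison with a single PBS mouse. A single mouse has no spread of its own, so the SE and p assume that it varies like the other groups, including the input libraries of 2 weeks, which were part of the fit. No gene was called (0% of 17644 by edgeR), 9.23% of all genes and 3 of the 10 members had an unadjusted p under 0.05, and DESeq2 and voom, which called 197 and 1076 genes, called no member. Npas4 was at 7.28, 2.05 and 8.67 CPM in IAKA mice 67, 98 and 8 against 0.709 CPM, or 9 counts, in PBS mouse 1. Egr1 was at 32.0, 45.8 and 30.7 CPM against 14.9 CPM. All 3 IAKA mice exceeded the PBS mouse for both genes, with log2 differences of 3.42 ± 1.14 (SE, edgeR adjusted p = 0.40) and 1.57 ± 0.53 (SE, edgeR adjusted p = 0.40).

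Ier5 was at 22.9, 27.4 and 21.3 CPM against 16.9 CPM, and Egr4 at 1.27, 2.05 and 2.82 CPM against 1.18 CPM. These 4 members, Npas4, Egr1, Ier5 and Egr4, were higher in every IAKA mouse, as were 10.9% of all genes. The log2 difference of Ier5 was 0.79 ± 0.32 (SE, edgeR adjusted p = 0.49). Nr4a3 lay on the other side, at 30.7, 25.3 and 30.4 CPM against 47.3 CPM, with a log2 difference of -0.39 ± 0.31 (SE). Every IAKA mouse lay below the PBS mouse for Nr4a3, as was so for 33.1% of all genes. 8 of 10 members were above 0, with a median log2 difference of 0.84 against 0.27 over all genes. Under scaling by library totals alone it was 7 of 10, with a median of 0.52 against -0.04 over all genes. The fit used TMM scaling factors, from 0.84 in IAKA mouse 8 to 1.15 in the PBS mouse, whereas the CPM did not. In that fit Egr2 (1.72), Egr4 (1.14), Nr4a1 (0.89), Ier2 (0.47), Egr3 (0.23) and Nr4a2 (-0.02) made up the rest. Cell type markers moved as well: blood genes were above 0 in 5 of 5 (median 1.87, their sum 11.8 to 38.7 CPM against 7.72 CPM in the PBS mouse), endothelial genes in 6 of 6 (median 1.72, 431 to 1205 against 885 CPM), infiltrating leukocyte genes in 5 of the 5 tested (median 1.38, 36.4 to 70.8 against 24.5 CPM), choroid plexus genes in 6 of 6 (median 1.05, 80.4 to 539 against 286 CPM) and inhibitory neuron genes in 0 of 6 (median -0.38, 324 to 361 against 570.2 CPM). None was at 0 in a whole group, and their part was not tested. Against the PBS mice of both times Egr1 was at 0.03 ± 0.42 (SE) and Npas4 at 0.59 ± 0.74 (SE), while Ier5 was at 0.98 ± 0.21 (SE, edgeR adjusted p = 0.0255). That fit called 416 of 14692 genes. Its PBS libraries included 3 of 2 weeks, with Ier5 at 11.4 to 15.8 CPM against 16.9 CPM in that of 24 h.

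At 2 weeks the m6A libraries gave log2 differences below 0 for 9 of the 10 members, all within overlapping groups, but that direction did not hold in every setting. With the library set as a block 5 of 10 were above 0 (median 0.10), as within set 5 (median 0.12), in voom (median -0.03) and without PBS mouse 78 (median -0.11). No gene was called (0% of 16157 by edgeR; 15 genes by DESeq2 and 2 by voom, none a member). Unadjusted, 2 of 10 members had a p under 0.05, as did 5.01% of all genes, and 1 of 10 stood above 0, with a median log2 difference of -0.30 against -0.001 over all genes. Of the 2, none was left without PBS mouse 78 or IAKA mouse 7. Excitatory neuron markers were above 0 in 0 of 6 (median -0.36, their sum ranging from 1642 to 3178 CPM in IAKA and from 1866 to 4694 CPM in PBS mice), thalamus markers in 0 of 6 (median -0.38, 118 to 186 against 137 to 321 CPM) and hippocampal field markers in 2 of 8 (median -0.38, 762 to 1385 against 570.3 to 1610 CPM). None was at 0 in a whole group, and their part was not tested. No member's groups were apart in either direction. Over all genes, groups were apart upward for 0.26% and downward for 0.334%.

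Npas4 in the 6 IAKA mice ran from 1.52 through a median of 4.19 to 9.23 CPM, against 3.24 to 12.6 CPM in the 5 PBS mice, a log2 difference of -0.96 ± 0.43 (SE, edgeR adjusted p = 0.87). Egr4 was at 9.13, 10.9, 2.23, 2.02 and 5.78 CPM in PBS mice 50, 78, 2, 3 and 4 and ran from 1.44 through 2.89 to 3.79 CPM in IAKA mice. Of the PBS mice 3 were above all IAKA mice and the other two among them, and the log2 difference was -1.10 ± 0.45 (SE, edgeR adjusted p = 0.87). Egr1 ran from 48.1 through 63.1 to 95.1 CPM after IAKA and from 57.3 to 133 CPM in its controls, with most mice in the shared range (log2 difference -0.49 ± 0.27, SE). The remaining members differed by between -0.43 (Nr4a3) and 0.33 (Ier5), with Nr4a1 at -0.32, Ier2 at -0.28, Nr4a2 at -0.26, Egr2 at -0.24 and Egr3 at -0.17.

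The controls differed by set here. PBS mice 50 and 78, of set 4, had Egr3 at 36.0 and 34.1 CPM, against 7.71, 7.14 and 14.1 CPM in the set 5 mice, and they were also the highest for Egr1, Egr2, Egr4, Nr4a1, Nr4a3, Ier2 and Ier5. Set 4 held no IAKA mouse at 2 weeks. Within set 5, 3 IAKA against 3 PBS mice, Ier5 was at 38.7 to 59.2 CPM against 20.8 to 26.3 CPM, a log2 difference of 1.02 ± 0.25 (SE, edgeR adjusted p = 0.96), and that of Egr1 was -0.04 ± 0.30 (SE).

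**Figure D3:**
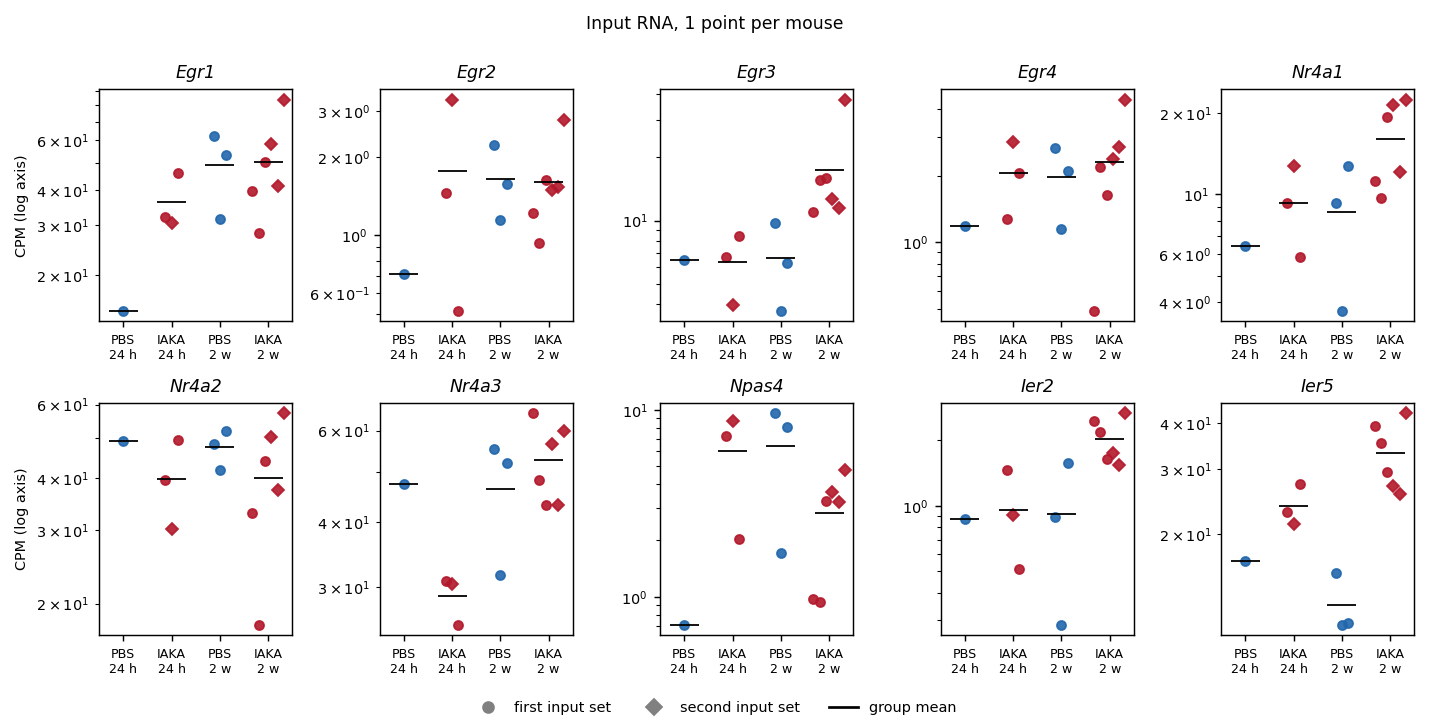
Level of each member in the input libraries, in CPM on a log axis; each point is 1 mouse, circles are the first and diamonds the second input set, and lines are group means. For Ier5 all 6 IAKA mice at 2 weeks lie between 25.7 and 42.4 CPM, above the 3 PBS mice at 11.4 to 15.8 CPM, and the single PBS mouse of 24 h stands alone.

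In input RNA at 2 weeks Ier5 had the smallest p of all 13752 genes tested, although it did not pass the adjusted threshold. It was at 15.8, 11.4 and 11.5 CPM in PBS mice 2, 3 and 4 and ran from 25.7 through a median of 32.4 to 42.4 CPM in the 6 IAKA mice, means of 12.9 ± 2.48 (SD, n = 3) and 33.1 ± 6.82 (SD, n = 6). The groups were well apart. Its log2 difference was 1.40 ± 0.21 (SE, edgeR adjusted p = 0.19), and it ran from 1.303 to 1.502 over 18 other settings. The adjusted p was 3.45e-05 in DESeq2, 0.00916 in voom, 0.0349 by edgeR without IAKA mouse 7 and at most 0.763 among all of them. Within the first input set, which held all 3 PBS and 3 of the IAKA mice, it was 1.48 ± 0.19 (SE, edgeR adjusted p = 0.13).

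Egr3 was at 9.77, 3.71 and 6.29 CPM in PBS mice and ran from 10.99 through 14.1 to 37.7 CPM in IAKA mice, again without overlap. The highest value was that of mouse 9, the others lying at 16.0 CPM or less. The log2 difference was 1.45 ± 0.45 (SE, edgeR adjusted p = 0.27), and 1.03 ± 0.27 (SE, edgeR adjusted p = 0.39) without mouse 9. These 2 members, of the 8 that passed the count filter (Egr2 and Ier2 did not), had groups apart upward, as did 2.64% of all genes.

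Nr4a1 ran from 9.68 through 15.7 to 22.4 CPM in IAKA mice, against 9.33, 3.71 and 12.8 CPM, with a log2 difference of 0.92 ± 0.36 (SE, edgeR adjusted p = 0.31). Npas4 was lower in IAKA mice, from 0.936 through 3.23 to 4.79 CPM against 9.55, 1.71 and 8.04 CPM, at -1.09 ± 0.48 (SE, edgeR adjusted p = 0.34) on the log2 scale. Of the PBS mice 2 lay above every IAKA mouse and the remaining one among them. With the library set as a block the value of Npas4 was -1.91 ± 0.58 (SE, edgeR adjusted p = 0.17). Egr4 (0.32), Nr4a3 (0.23), Egr1 (0.09) and Nr4a2 (-0.20) differed by less. Over all genes the edgeR test called 0% and gave 14.1% an unadjusted p under 0.05, with 4 of the 8 members among them; the members' median log2 difference was 0.27 against 0.017. That median was not steady: it was -0.03 with 4 of 8 above 0 under the library set as a block, 0.09 without PBS mouse 3 and likewise without IAKA mouse 9, and 0.51 without PBS mouse 2, after which 2 members had an unadjusted p under 0.05.

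Markers of several cell types moved with group in these input libraries. Astrocyte genes were above 0 in 6 of 6 (median 0.65, their sum ranging from 3116 to 7260 CPM in IAKA and from 2015 to 4229 CPM in PBS mice), microglia genes in 6 of 6 (median 0.65, 100.2 to 234 against 80.1 to 116 CPM) and hippocampal field genes in 8 of 8 (median 0.58, their sum ranging from 725 to 1402 CPM in IAKA and from 629 to 809 CPM in PBS mice). Gfap, the filament of reactive astrocytes, was at 2.50 (edgeR adjusted p = 0.20). Their part in the values of Ier5 and Egr3 was not tested.

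The difference between both times was tested directly in the m6A libraries, as the IAKA effect at 2 weeks minus that at 24 h. Npas4 ranked second by p among 17440 genes, at -4.04 ± 0.79 on the log2 scale (SE, edgeR adjusted p = 0.32; 0.000470 in DESeq2 and 0.00996 in voom). Egr1 was at -1.96 ± 0.51 (SE, edgeR adjusted p = 1.00; 0.0257 in voom), Egr2 at -2.80 ± 1.05 (SE) and Nr4a1 at -1.65 ± 0.58 (SE). Ier2 (-1.64), Egr4 (-1.51), Ier5 (-0.74) and Nr4a2 (-0.36) were below 0 and Egr3 (0.42) and Nr4a3 (0.09) above. No member was called by edgeR, against 0.00573% of all genes, and 4 had an unadjusted p under 0.05, against 2.45%. The PBS mice of 24 h enter both this difference and the comparison at 24 h, so the values are given side by side and are not independent of each other.

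The last comparison set m6A libraries against input. In the 9 mice with both libraries at 2 weeks, the ratio of m6A to input CPM was above 1 in all 9 for Egr1, with a median log2 ratio of 0.44 (0.18 to 0.85), and in all 9 for Nr4a2, with a median of 0.33 (0.07 to 0.92). Nr4a3 was above in 8 of 9 (median 0.34) and Ier5 in 8 of 9 (median 0.70). The sparse members were scattered: Npas4 and Ier2 were above 1 in 7 mice, Egr3 and Nr4a1 in 6, Egr4 in 5 and Egr2 in 4. These ratios were scaled by library totals only. Under that scaling 71.9% of all genes had a log2 difference of m6A over input above 0 in PBS mice, with a median of 0.31.

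**Figure D4:**
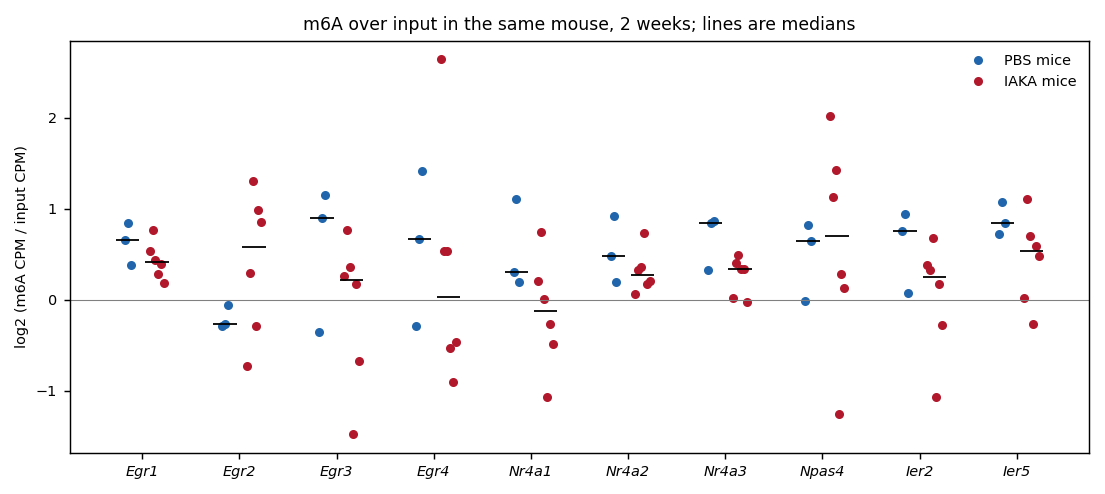
Log2 ratio of m6A to input CPM in the same mouse at 2 weeks for each member, 3 PBS and 6 IAKA mice, with lines at the medians and at 0. Egr1 and Nr4a2 lie above 0 in all 9 mice, while Egr4 and Npas4 spread over several log2 units.

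In PBS mice at 2 weeks all 10 members had a log2 difference of m6A over input above 0, with a median of 0.83 against 0.074 over all genes. No member passed, against 2.31% of 16141 genes by edgeR, and 6 had an unadjusted p under 0.05, against 19.8%. That count rested on few libraries: it was 1 without the input library of PBS mouse 3, 2 without the m6A library of PBS mouse 50 or 78, 3 with the mouse as a replicate block and 1 in voom. Ier5 was nearest, at 1.38 ± 0.39 (SE, edgeR adjusted p = 0.0622; 0.0125 in DESeq2), followed by Nr4a3 at 0.73 ± 0.24 (SE, edgeR adjusted p = 0.11). Egr4 and Egr3 (1.37 each), Ier2 (1.36), Nr4a1 (0.87), Egr1 (0.78), Egr2 (0.75), Nr4a2 (0.25) and Npas4 (0.24) made up the rest. The m6A libraries of PBS mice 50 and 78 had no input library of the same mouse. With the mouse as a replicate block, over mice with both libraries, 9 of 10 members were above 0. The median was then 0.35 and Ier5 was at 0.65 ± 0.22 (SE, edgeR adjusted p = 0.14). In voom 8 of 10 were above 0 (median 0.25). Egr2 was below 0 in each PBS mouse with both libraries, at log2 ratios of -0.29, -0.26 and -0.06 in mice 2, 3 and 4. A level in an m6A library follows both the amount of the transcript and its modified share.

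The IAKA effect on that ratio at 2 weeks called no gene (0% by edgeR; 4 genes by DESeq2, 0 by voom). In all, 4 members had an unadjusted p under 0.05, as did 4.06% of all genes: Nr4a1 at -1.26 ± 0.54 (SE), Ier5 at -1.08 ± 0.47 (SE), Egr3 at -1.64 ± 0.74 (SE) and Nr4a3 at -0.67 ± 0.31 (SE) on the log2 scale, each with an adjusted p of 0.81. The members' median was -0.87 against -0.037 over all genes, and it was -0.07 with the library set and -0.39 with the mouse as a block. Under either block no member had an unadjusted p under 0.05, nor without the input library of PBS mouse 3 or of IAKA mouse 9 or the m6A library of PBS mouse 78. Egr4 (-1.41), Ier2 (-1.40), Egr1 (-0.58), Egr2 (-0.28), Nr4a2 (-0.06) and Npas4 (0.13) were the other members. Hippocampal field markers were above 0 in 0 of 8 (median -1.02) and excitatory neuron markers in 0 of 6 (median -0.67) in the same test, with none at 0 in a whole group, and their part was not tested.

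GGACT, the most frequent form of the sequence in which adenosine is methylated, was counted in the transcripts. Members held a median of 1.09 per kb, against 1.02 over 14986 genes, so the group as a whole was close to other genes. They differed among themselves: Ier2 held 3.28 per kb, Npas4 2.49 and Nr4a1 1.96, whereas Nr4a3 held 0.35 and Egr3 0.46.

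Across the 19 m6A libraries the members varied together to differing degrees, as a description over libraries that share sets and depth. Of the 45 pairs 41 had a correlation of log2 CPM above 0, and the median was 0.50. The closest pairs were Egr1 with Nr4a1 (r = 0.83) and Ier2 with Ier5 (r = 0.80). Set against the mean of the other members, Nr4a1 was the most alike (r = 0.88) and Nr4a2 the least (r = 0.25), with Nr4a3 next (r = 0.43). Among 17430 genes the 5 most like the mean of the members were Arc, a synaptic immediate early gene (r = 0.90), Spred3, an inhibitor of Ras signalling (r = 0.82), Mtf1, the metal-responsive factor (r = 0.81), Gm13772 (r = 0.81) and Junb, an AP-1 subunit (r = 0.80).

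Other genes of the pathway were described from lists. At 24 h in m6A libraries, 22 of 22 early effector genes were above 0 (median log2 difference 1.13) and 15 of 17 other immediate early transcription factors (median 0.94). In input of that time, against a single PBS mouse, the counts were 21 of 22 (median 1.21) and 17 of 17 (median 1.28). The upstream factors, such as Srf and Creb1, differed less, with 5 of 13 above 0 in m6A (median -0.20) and 10 of 13 in input (median 0.37). So did partners and corepressors, with 4 of 7 (median 0.02) and 6 of 7 (median 0.26). Of all genes tested, 58% were above 0 in m6A (median 0.083) and 65.9% in input (median 0.27). Under scaling by library totals alone the share in input was 47.8% (median -0.04). The PBS mice differed between times for the early effectors too. In m6A libraries, PBS mice at 2 weeks over 24 h, 19 of 22 were above 0 (median 0.38), and 9 of 17 other factors (median 0.02). None of these genes passed the edgeR threshold at 24 h. Fos, an AP-1 subunit named here after its values were seen, was at 3.19 in m6A (edgeR adjusted p = 0.12) and 4.01 in input (edgeR adjusted p = 0.18).

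At 2 weeks 14 of 22 early effectors (median 0.20) and 6 of 17 other factors (median -0.20) were above 0 in m6A libraries, and 17 of 20 (median 0.41) and 13 of 15 (median 0.59) in input, again with none past the threshold. Of all genes tested, 49.8% were above 0 in m6A libraries and 52.4% in input. Nab2, the corepressor of EGR proteins and likewise named after its values were seen, was at 1.06 ± 0.25 in input (SE, edgeR adjusted p = 0.24) and at -0.42 ± 0.35 (SE, edgeR adjusted p = 0.87) in m6A libraries. For m6A over input in PBS mice, Nfil3, a bZIP repressor, was the single gene of these lists to pass, at 1.35 ± 0.34 (SE, edgeR adjusted p = 0.0352).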

How the data were processed

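Hippocampal RNA of single mice was sequenced as input (16 libraries) or after m6A immunoprecipitation (19 libraries), from a stranded total RNA kit. Raw counts for each gene symbol were deposited separately by lane. The submitters' processing notes name build mm10, whereas aligner and counting program were not given in the sources used here. The 4 lanes of each library were summed and 8 columns that match no sample were not used. Input libraries under 100000 counts were left out. Groups were compared with edgeR 4.0.16 under R 4.3.3 (TMM scaling, filterByExpr by group, robust quasi-likelihood F test), fitted over all genes passing the filter, with Benjamini-Hochberg adjustment and a threshold of 0.05; the SE is the log2 difference over the square root of F. Library set was not in the model. The input comparison at 24 h was fitted with the 2 weeks input libraries, which supply most of its spread. DESeq2 1.42.0, limma 3.58.1 (voom with quality weights), other scalings, filters and blocks, and leaving out each library were alternatives, and the code was tested on simulated data. The fits within set 4, set 5 or the first input set were added after the counts were seen. So was the m6A fit at 24 h against PBS mice of both times. CPM were taken over library totals and m6A to input ratios with 0.5 counts added.

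All 10 members were named in every comparison, with genes of the pathway lists past the threshold and the 5 genes most like the members' mean. Members and lists were chosen with earlier results of these data known. Mouse numbers in the labels tie input and m6A libraries of 1 animal. Own pairs at 2 weeks correlated at -0.04 to 0.43 in their deviations from the group means, over 0.1 in 7 of 9. The input library most alike was the mouse's own in 5 of 9. PBS mice 2, 3 and 4, at -0.04, 0.15 and -0.02, were not among these. The same-mouse ratios and the replicate block rest on these pairs. Within an assay each library is a separate mouse by the labels.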

Additional observations from a re-analysis of the deposited data

Results flagged for a closer look

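Of the 40 combinations of member and group with 4 to 10 libraries, 1 stood out by Dixon's test, where chance gives about 1 in 20, or 2 of 40. Egr3 in input libraries of IAKA mice at 2 weeks was at 37.7 CPM in mouse 9, while the other 5 mice lay between 10.99 and 16.0 CPM. The gap to the nearest mouse was 0.811 of the range, above the limit of 0.625 for 6 samples.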

How the results depend on the processing

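No member passed the adjusted threshold in any comparison in the edgeR test as described, and the count of members past it under other settings was as follows. At 24 h in m6A libraries it was 1 in DESeq2 (156 of 16470 genes in all) and 2 within set 4 (356 of 16903). In voom it was 6 (1120 of 16470), namely Egr1, Egr2, Nr4a1, Npas4, Ier2 and Ier5. At 24 h in input it was 1 (Ier5) against PBS mice of both times (416 of 14692). At 2 weeks in input it was 1 (Ier5) in DESeq2 (116 of 13752), in voom (342 of 13752) and with no filter on low counts (4 of 24316). It was 0 to 1 when each mouse was left out, the 1 being without IAKA mouse 7 (1 of 13503). For the difference between times it was 1 in DESeq2 (5 of 17440) and 2 in voom (62 of 17440). For m6A over input in PBS mice it was 1 in DESeq2 (900 of 16141), 1 in voom (2023 of 16141) and 2 with library size scaling (1036 of 16141). It was 0 to 2 with each library left out, the highest without PBS m6A mouse 3 (505 of 15821). In the other comparisons it was 0 throughout. The cause of these differences was not tested.

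Counts over all genes moved more: at 24 h in m6A libraries 1 gene was called, 156 in DESeq2, 1120 in voom, 22 without a filter, 31 with all m6A libraries in 1 fit, 45 without mouse 8, 356 within set 4, 320 against PBS mice of both times and 0 with the set as a block. In input at 24 h, 0 became 197 in DESeq2, 1076 in voom, 180 without IAKA mouse 8, 342 within the first input set, 75 with the shallow libraries and 416 against PBS mice of both times, and at 2 weeks 116 in DESeq2, 342 in voom and 4 without a filter. For m6A over input, 373 became 900 in DESeq2, 2023 in voom, 1036 with library size scaling, 244 without a filter, 265 with the replicate block (which calls no member) and 53 (without the input library of PBS mouse 3) to 676 (without the m6A library of IAKA mouse 6) with each library left out. For the IAKA effect on that ratio, the replicate block called 1 gene against 0, no member. The library set could not be fitted as a block for m6A over input in PBS mice. Of 1707 member values under alternatives, 1651 were on the same side of the threshold or within the spread, 27 passed it newly, 29 moved further, and 70 differed in sign, none of them past the threshold. Depth limits Egr2, Egr4 and Ier2 most, with as few as 0 to 2 counts in a library, and the input comparison at 24 h has 1 PBS mouse.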
